A study of Mus musculus with 6 samples.

Results

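Conjugation enzymes and aldo-keto reductases were examined in bulk RNA sequencing counts of mouse colon tumours. The genes were chosen by name, as protein-coding genes whose mouse symbol starts with Ugt1, Ugt2, Sult, Gsta, Gstm, Gstp, Gstt, Gsto, Gstk, Mgst or Akr1 to Akr7. These families were picked with earlier results of these data known. The genes came to 81 of the 53700 gene rows, and 51 of them had 30 or more counts summed over the 6 libraries. Of the other 30 genes, 15 had no count in any library. Just inside that minimum were Gsta2 and Ugt1a6b with 30 counts each, and just outside were Sult6b1 with 26 and Ugt2b1 with 15. Tumours of 3 APC-KI mice, in which doxycycline represses Tcf7l2 throughout the body, were taken after 6 weeks of doxycycline from animals labelled recovered. Tumours of 3 APC-WT mice, which kept endogenous Tcf7l2, were taken after 10 days of doxycycline from animals labelled cachectic, that is, wasting. APC is part of both group names, and KI and WT are used here for the state of Tcf7l2. The dose in the food was 100 mg/kg in all 6 animals. Genotype, time on doxycycline and state of wasting therefore cannot be told apart. Age, sex and the number of tumours in a library were not given, and tumours were pinched off the muscle layer beneath.

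Conjugation enzymes attach a polar group to foreign compounds, steroids, bilirubin and reactive lipids, so that they dissolve in water and can be pumped out of the cell. UDP-glucuronosyltransferases (Ugt genes) add glucuronic acid, sulfotransferases (Sult genes) add sulfate and glutathione transferases (Gst and Mgst genes) add glutathione. Aldo-keto reductases (Akr genes) reduce aldehydes and ketones, among them steroids and sugars, with NADPH as the usual donor. The intestinal epithelium is, after the liver, a main site of this metabolism.

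The libraries held between 51777342 and 63921108 counts. Levels are given as CPM, counts scaled to a common library total after TMM factors, which adjust for library composition. Tcf7l2, the gene repressed by design, stood at 4.48, 6.90 and 5.34 CPM in APC-KI tumours, against 44.1, 43.8 and 35.6 CPM in APC-WT tumours, in the order of replicates 1 to 3 that is used throughout. The libraries of APC-WT replicates 1 and 2 held 19164 and 16055 counts of Y-linked genes and the other 4 libraries held 0. Males carry such genes, so the sexes may be unevenly divided within and between the groups, although the labels give no sex. Markers of several cell types also differed. The summed CPM of 10 pan-epithelial genes was 10689 to 12362 in APC-KI and 8917 to 9990 in APC-WT tumours. For 11 absorptive colonocyte genes it was 7954 to 9294 CPM in APC-KI and 2216 to 2456 CPM in APC-WT tumours, but Lypd8 alone made up 7061, 5729.6 and 6650.1 CPM of the APC-KI sums. Car4, Aqp8, Slc26a3, Fabp2 and Guca2a, of the same list, lay within or below their APC-WT range in APC-KI replicate 3 (11.6, 0.640, 16.8, 1.89 and 21.2 CPM). For 8 smooth muscle genes it was 1000.1 to 1619 CPM in APC-KI and 188 to 471 CPM in APC-WT tumours, and for 7 B and plasma cell genes 5783 to 14343 CPM in APC-KI and 840.2 to 1307 CPM in APC-WT tumours. Of these lists 5 of 10, 6 of 11, 8 of 8 and 5 of 7 genes were higher in APC-KI tumours, and 1 pan-epithelial gene was lower. All 8 mast cell genes and all 8 Wnt target genes were lower. These calls are at an edgeR adjusted p under 0.05, where 12.5% of all genes tested were higher and 7.63% lower. The Wnt targets summed to 712 to 1111 CPM in APC-KI and 2107 to 2985 CPM in APC-WT tumours. In bulk tissue, more cells of a type and more RNA per cell cannot be told apart, and the part of these cell types in the results below was not tested.

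Enzymes of sulfation, glucuronidation, glutathione conjugation and carbonyl reduction were higher in APC-KI tumours, among them Sult1b1 (4.06-fold), Ugt1a7c (3.95-fold), Gstt1 (3.97-fold) and Akr1c14 (3.90-fold). The summed level of all 81 genes was 2415 ± 146 CPM in APC-KI and 1845 ± 79.9 CPM in APC-WT tumours (SD, n = 3 each). Sulfotransferases together held 128 ± 25.0 CPM in APC-KI and 50.9 ± 0.918 CPM in APC-WT tumours, and Ugt1 genes 36.7 ± 13.4 CPM in APC-KI and 9.77 ± 1.49 CPM in APC-WT tumours. The mu class, by contrast, summed to 258 ± 27.2 CPM in APC-KI and 252 ± 29.0 CPM in APC-WT tumours. These sums describe the families and were not tested.

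Of 46 genes that passed the filter on low counts, 21 were higher in APC-KI tumours at an edgeR adjusted p under 0.05 and 0 were lower. Among all 19127 genes tested 12.5% were higher and 7.63% lower, and 20.1% passed in either direction. Because the families were picked with earlier results of these data known, the gap between these shares is a description. DESeq2 called 25 of the enzymes higher and 1 lower, where it called 3369 higher and 2388 lower among all 19127 genes (30.1%). At an unadjusted p under 0.05 the edgeR counts were 27 higher and 3 lower. The share of all genes at that unadjusted threshold is not given here. The 46 genes had a median log2 change of 0.50, where all tested genes had -0.02. Akr1c18 and Akr1c21 passed the filter through the APC-KI libraries alone, and such entry favours a higher level in APC-KI tumours without fixing it. Without Akr1c18 and Akr1c21, 19 of 44 were higher. For 30 of the 46 genes (65.2%) the APC-KI and APC-WT values were fully separated, against 44.5% of all genes tested. With library totals in place of TMM factors, which moves the median of all genes by -0.12, 19 of these enzymes were higher and 3 (Gstm5, Sult4a1 and Akr7a5) lower. Higher ones made up 62.1% of calls over all genes with TMM factors, and 41% with library totals.

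Single libraries bear on the calls that follow. The number of higher genes dropped to 12 without APC-KI replicate 1, to 12 without APC-KI replicate 2 and to 10 without APC-WT replicate 2, while 6.48%, 7.02% and 5.91% of all genes then passed. When the 2 libraries with Y-linked counts were left out, 5 of the enzymes were higher and 1, Gstm5, lower, and 1.62% of all genes passed. That fit has a single APC-WT library and assumes for it the spread of the APC-KI ones.

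**Figure D1:**
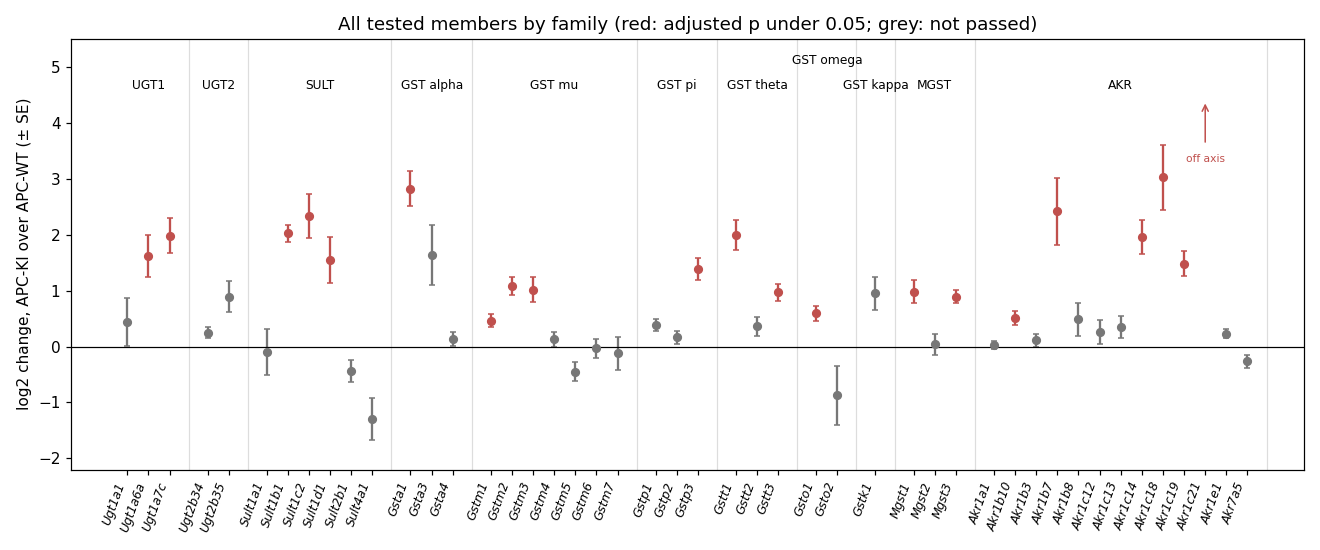
Log2 change (APC-KI over APC-WT, vertical axis) of each of the 46 genes tested, grouped by enzyme family. Bars give the SE derived from the edgeR test, and red marks genes past an adjusted p of 0.05. All 21 red points lie above 0, and Akr1c21, which had 0 counts in APC-WT tumours, lies beyond the axis.

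Of 6 sulfotransferases tested 3 rose (50%, against 12.5% of all genes). Sult1b1 (ENSMUSG00000029269.12), which sulfates thyroid hormones and small phenols and is a main sulfotransferase of the gut, held 95.7, 84.3 and 67.1 CPM in APC-KI tumours, against 20.1, 18.3 and 22.4 CPM in APC-WT tumours. Every APC-KI library was above every APC-WT library, and the change was 4.06-fold (log2 2.02 ± 0.15, SE, edgeR adjusted p = 0.00216). Sult1c2, a phenol sulfotransferase, held 9.35, 6.46 and 5.62 CPM in APC-KI and 0.780, 1.49 and 2.00 CPM in APC-WT tumours, a 5.02-fold difference (log2 2.33 ± 0.39, edgeR adjusted p = 0.0121, or 0.053 without APC-WT replicate 2). The groups were again separate. Sult1d1, whose mouse enzyme sulfates catecholamines and which lies next to Sult1b1 among these genes on chromosome 5, held 27.2, 23.8 and 13.1 CPM in APC-KI and 3.75, 9.003 and 9.18 CPM in APC-WT tumours. It passed at a log2 change of 1.55 ± 0.42 (edgeR adjusted p = 0.0454), and the edgeR adjusted p lay between 0.0625 and 0.132 when any library other than APC-KI replicate 3 was left out. Its lowest APC-KI value, in replicate 3, was 13.1 CPM, and its highest APC-WT value 9.18 CPM.

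The other sulfotransferases tested did not pass. Sult1a1, a phenol sulfotransferase, had a log2 change of -0.10, with a 95% interval of -1.08 to 0.88, and spread widely in APC-WT tumours (16.0, 9.09 and 4.75 CPM, against 10.5, 7.88 and 9.54 CPM in APC-KI tumours). Sult2b1, which sulfates cholesterol and related steroids, had a log2 change of -0.44 ± 0.19 (edgeR adjusted p = 0.143). Sult4a1, an orphan member known from brain, held 1.04, 1.63 and 1.01 CPM in APC-KI and 1.71, 3.29 and 4.02 CPM in APC-WT tumours. The groups did not overlap, yet its log2 change of -1.29 ± 0.38 missed the threshold (edgeR adjusted p = 0.055), and it was the 1 gene called lower by DESeq2. Of 21 sulfotransferase genes 14 had under 30 counts, among them 10 with none, and Sult5a1, with 46 counts in APC-KI and 15 in APC-WT tumours, did not pass the filter.

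Of 3 glucuronosyltransferases of the Ugt1 cluster that were tested 2 rose (66.7%, against 12.5% of all genes). Neither of the 2 Ugt2 genes tested passed (2 were higher at an unadjusted p under 0.05, and 1 by DESeq2). Ugt1a7c, a phenol-conjugating isoform, held 43.8, 39.99 and 19.6 CPM in APC-KI tumours, against 8.40, 7.40 and 10.4 CPM in APC-WT tumours. The change was 3.95-fold (log2 1.98 ± 0.31, edgeR adjusted p = 0.0111, or 0.0513 without APC-WT replicate 2), and APC-KI replicate 3 stood well below the other APC-KI libraries. Ugt1a6a, which conjugates planar phenols, held 1.33, 1.68 and 0.801 CPM in APC-KI and 0.330, 0.352 and 0.561 CPM in APC-WT tumours (log2 1.62 ± 0.38, edgeR adjusted p = 0.03). Its groups were separate, but the edgeR adjusted p was 0.076 to 0.105 without APC-KI replicate 1 or 2 or without APC-WT replicate 1 or 2. Ugt1a1, the bilirubin-conjugating isoform, had a log2 change of 0.44 with a 95% interval of -0.57 to 1.45. Genes of this cluster share their last exons. In GENCODE M21, 54.6% of the exonic bases of Ugt1a7c, 50.3% of Ugt1a6a and 58.9% of Ugt1a1 lie in exons of another gene on the same strand, and counts in those exons cannot be assigned with certainty to a single isoform gene.

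Ugt2b34 was the most abundant glucuronosyltransferase per length, at 44.4 CPM per kb of exon in APC-KI and 37.3 CPM per kb in APC-WT tumours. Its log2 change of 0.25 ± 0.10 did not pass (edgeR adjusted p = 0.122, 95% interval 0.01 to 0.49). Ugt2b35 held 38.7, 32.2 and 60.5 CPM in APC-KI and 29.9, 23.2 and 17.8 CPM in APC-WT tumours, groups that did not overlap, and missed the threshold (log2 0.89 ± 0.28, edgeR adjusted p = 0.0691). Whether Ugt1 and Ugt2 genes differ from each other in their change was not tested. The low Ugt genes Ugt1a6b and Ugt2b5 had 25 and 24 counts in APC-KI and 5 and 8 counts in APC-WT tumours and were not tested.

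Of 24 glutathione transferases, 22 were tested and 10 rose (45.5%, against 12.5% of all genes). In the alpha class, Gsta1 held 4.99, 3.50 and 3.70 CPM in APC-KI tumours and 0.765, 0.404 and 0.542 CPM in APC-WT tumours, a 7.08-fold difference (log2 2.82 ± 0.31, edgeR adjusted p = 0.00531). The copy Gm3776 shares most of its sequence with Gsta1, since 90.5% of the 50-base words in Gsta1 transcripts also occur in another gene. Gm3776 rose too (log2 2.35 ± 0.57, edgeR adjusted p = 0.0333), and reads may be divided between the pair. Gsta3 held 48.5, 42.9 and 49.7 CPM in APC-KI and 28.8, 10.2 and 6.23 CPM in APC-WT tumours. The APC-KI libraries lay close together and above a wide APC-WT range, and Gsta3 did not pass (log2 1.64 ± 0.53, edgeR adjusted p = 0.0737), whereas it passed with DESeq2, with limma-voom and without APC-WT replicate 1 (log2 2.51, edgeR adjusted p = 0.00844). Gsta4, which conjugates the lipid peroxidation product 4-hydroxynonenal, had a log2 change of 0.14 with a 95% interval of -0.16 to 0.44. Gsta2 had 17 counts in APC-KI and 13 in APC-WT tumours and was not tested.

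The 7 mu class genes lie together on chromosome 3 and did not move as one. In their order along the chromosome, Gstm5, Gstm7 and Gstm6 had log2 changes of -0.46, -0.12 and -0.03, none of which passed. The neighbours Gstm3, Gstm2 and Gstm1 rose, by 1.01, 1.08 and 0.46 on the log2 scale (edgeR adjusted p = 0.0253, 0.00946 and 0.0366), and Gstm4 at the far end did not pass at 0.13. Gstm2 held 34.7, 27.0 and 25.6 CPM in APC-KI tumours, against 12.4, 12.7 and 16.2 CPM in APC-WT tumours. Gstm1, the most abundant per length of the mu genes that rose (52.2 CPM per kb in APC-KI and 37.9 in APC-WT tumours), held 81.6, 69.2 and 80.0 CPM in APC-KI and 64.2, 50.04 and 53.1 CPM in APC-WT tumours. Both genes were separate between the groups. The Gstm1 call was lost with library totals (log2 0.35, edgeR adjusted p = 0.0717) and without any library other than APC-WT replicate 1 (edgeR adjusted p = 0.0587 to 0.12). Gstm3 lost its call without APC-KI replicate 1 or 2 or APC-WT replicate 1 or 2 (edgeR adjusted p = 0.0607 to 0.0927). For Gstm5 the values were 80.9, 78.8 and 80.4 CPM in APC-KI and 91.4, 95.5 and 142 CPM in APC-WT tumours, without overlap (edgeR adjusted p = 0.0998), and Gstm5 was called lower with library totals. Between 18.9% and 28.8% of the 50-base words of Gstm1 and Gstm3 are shared with other genes or pseudogenes, so part of their counts is uncertain.

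**Figure D2:**
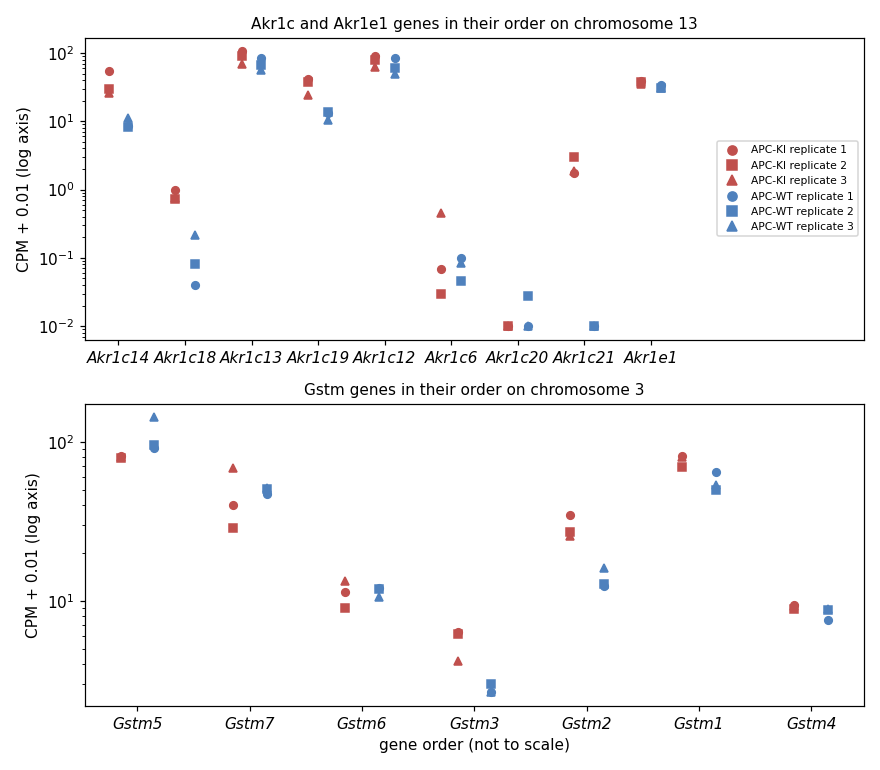
CPM per library (vertical log axis, with 0.01 added) of the Akr1c genes and Akr1e1 in their chromosome 13 order and of the Gstm genes in their chromosome 3 order, APC-KI to the left of APC-WT for each gene. Akr1c14, Akr1c18, Akr1c19 and Akr1c21 are separated between the groups, whereas Akr1c13 and Akr1c12 between them overlap, and Gstm3, Gstm2 and Gstm1 lie higher in APC-KI tumours.

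The pi, theta, omega and kappa classes hold fewer genes. Gstp3 held 8.62, 8.72 and 7.58 CPM in APC-KI tumours, against 3.81, 2.67 and 3.05 CPM in APC-WT tumours, a 2.61-fold difference (log2 1.39 ± 0.19, edgeR adjusted p = 0.00816). Its neighbours Gstp1 and Gstp2, the main pi class enzymes, differed by 0.39 and 0.16 on the log2 scale and did not pass (edgeR adjusted p = 0.0508 and 0.359), and 33.7% and 54.3% of their 50-base words are shared, mainly between the pair. Gstp3 shares 0% of its words with another gene. Gstt1, which acts on small halogenated compounds, held 7.09, 12.01 and 8.56 CPM in APC-KI and 2.07, 2.02 and 2.88 CPM in APC-WT tumours (log2 1.99 ± 0.27, edgeR adjusted p = 0.00746). Gstt3 held 16.3, 16.4 and 14.96 CPM in APC-KI and 9.42, 8.30 and 6.68 CPM in APC-WT tumours (log2 0.97 ± 0.16, edgeR adjusted p = 0.0113). It was 1 of the genes that passed also over the libraries without Y-linked counts (log2 1.25, edgeR adjusted p = 0.0487), and its edgeR adjusted p was 0.0502 without APC-KI replicate 1. Gstt2 did not pass at a log2 change of 0.37 but did without APC-WT replicate 1 (log2 0.55, edgeR adjusted p = 0.0467). Gsto1, which reduces dehydroascorbate and methylated arsenic, held 179.7, 195 and 144 CPM in APC-KI and 103, 111 and 130.4 CPM in APC-WT tumours, a 1.51-fold rise (edgeR adjusted p = 0.0308, but 0.0781 to 0.106 without APC-KI replicate 1 or 2 or APC-WT replicate 1 or 2). Gsto2, the related and rarer gene, which passed the filter through the APC-WT libraries alone, had a log2 change of -0.88 with a 95% interval of -2.14 to 0.39. Gstk1, found in mitochondria and peroxisomes, held 24.6, 24.7 and 14.5 CPM in APC-KI and 7.36, 12.2 and 13.3 CPM in APC-WT tumours and did not pass (edgeR adjusted p = 0.0624, or 0.0294 without APC-KI replicate 3). Gstp1 likewise passed without APC-KI replicate 3 (edgeR adjusted p = 0.0239).

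Among the membrane-bound enzymes Mgst3 and Mgst1 rose. Mgst3, which has peroxidase and leukotriene C4 synthase activity, held 202, 194 and 162 CPM in APC-KI tumours, against 104, 90.8 and 106 CPM in APC-WT tumours. The groups were far apart relative to their spread, and the change was 1.86-fold (log2 0.89 ± 0.11, edgeR adjusted p = 0.00626). Per length Mgst3 was second of all 46 genes in both groups, at 169.7 CPM per kb in APC-KI and 91.4 CPM per kb in APC-WT tumours. Mgst1, which also reduces lipid peroxides, held 87.6, 84.7 and 59.1 CPM in APC-KI and 46.2, 30.9 and 40.2 CPM in APC-WT tumours (log2 0.98 ± 0.20, edgeR adjusted p = 0.0216). Its groups were separate, and its call was lost without APC-KI replicate 1, APC-KI replicate 2 or APC-WT replicate 2 (edgeR adjusted p = 0.0651 to 0.0752). For Mgst2, which can also form leukotriene C4, the log2 change was 0.04 with a 95% interval of -0.42 to 0.49.

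Aldo-keto reductases differed widely from each other in level. Akr1a1, the aldehyde reductase that makes gulonate from glucuronate, led all 46 genes per length, at 191 CPM per kb in APC-KI and 188 CPM per kb in APC-WT tumours. Its log2 change was 0.02, with a 95% interval of -0.14 to 0.19. The difference turned to -0.01 with upper-quartile factors and to -0.09 with library totals. Of 13 genes tested 6 rose (46.2%, against 12.5% of all genes), namely Akr1c14, Akr1c18, Akr1c19, Akr1c21, Akr1b7 and Akr1b10.

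The first 4 of these lie in the Akr1c cluster on chromosome 13, whose enzymes act mainly on steroids. Akr1c14, a 3-alpha-hydroxysteroid dehydrogenase, held 53.6, 29.6 and 25.8 CPM in APC-KI tumours, against 8.38, 8.25 and 11.3 CPM in APC-WT tumours (log2 1.96 ± 0.30, edgeR adjusted p = 0.0104). Akr1c19 held 41.5, 37.6 and 24.5 CPM in APC-KI and 13.1, 13.8 and 10.3 CPM in APC-WT tumours (log2 1.48 ± 0.22, edgeR adjusted p = 0.00904). Each APC-KI library was above each APC-WT library for both genes. Akr1c21, which encodes a 3(17)-alpha-hydroxysteroid dehydrogenase, had 92, 157 and 104 counts in the APC-KI libraries and 0 in all 3 APC-WT libraries. Against a floor of 3 counts over the APC-WT group it was at least 129.7-fold higher in APC-KI tumours, with the APC-KI counts taken as measured. The exact 95% lower limit of the ratio, which covers counting error in both groups, was 105. Since Akr1c21 entered the test through the APC-KI libraries alone, its passing in the alternative fits adds nothing. Akr1c18, the 20-alpha-hydroxysteroid dehydrogenase that inactivates progesterone, had 51, 38 and 42 counts in APC-KI and 2, 4 and 11 counts in APC-WT tumours. The count ratio was 8.50, with an exact 95% interval of 5.11 to 15.03 for counting error (edgeR adjusted p = 0.0177). Its call was lost without APC-KI replicate 1, APC-KI replicate 2 or APC-WT replicate 2 (edgeR adjusted p = 0.0527 to 0.0743).

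The cluster also held genes that did not pass. Akr1c13 and Akr1c12, which lie on both sides of Akr1c19, had log2 changes of 0.35 and 0.26, and the values of Akr1c13, 105, 90.0 and 68.9 CPM in APC-KI and 84.0, 67.6 and 56.1 CPM in APC-WT tumours, overlapped. The pair shares sequence, 24.2% and 28.6% of the 50-base words. Akr1c6, a 17-beta-hydroxysteroid dehydrogenase, had 3, 1 and 25 counts in APC-KI and 6, 2 and 4 counts in APC-WT tumours and was not tested. Akr1e1, next to Akr1c21, did not pass at a log2 change of 0.23.

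In the Akr1b group, Akr1b7, first known from the mouse vas deferens, held 1.04, 1.17 and 3.72 CPM in APC-KI and 0.255, 0.317 and 0.542 CPM in APC-WT tumours, and most of the APC-KI mean came from replicate 3 (log2 2.42 ± 0.60, edgeR adjusted p = 0.0361). Without APC-KI replicate 1 or 2 or APC-WT replicate 1 or 2 the edgeR adjusted p was 0.0581 to 0.119. Akr1b10 held 24.1, 27.3 and 31.6 CPM in APC-KI and 18.0, 19.8 and 20.5 CPM in APC-WT tumours, a 1.42-fold rise (edgeR adjusted p = 0.0343) that was lost with library totals (edgeR adjusted p = 0.073) and without any library other than APC-WT replicate 3 (0.0504 to 0.103). Akr1b3, the aldose reductase that turns glucose into sorbitol, had a log2 change of 0.12 with a 95% interval of -0.16 to 0.39. Akr1b8 held 87.0, 84.4 and 83.2 CPM in APC-KI and 38.7, 52.1 and 91.0 CPM in APC-WT tumours. APC-WT replicate 3 was in the APC-KI range, and Akr1b8 did not pass. Akr7a5, which reduces aflatoxin dialdehyde and succinic semialdehyde, changed by -0.27 ± 0.11 on the log2 scale, below the threshold (edgeR adjusted p = 0.129), but was called lower with library totals.

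**Figure D3:**
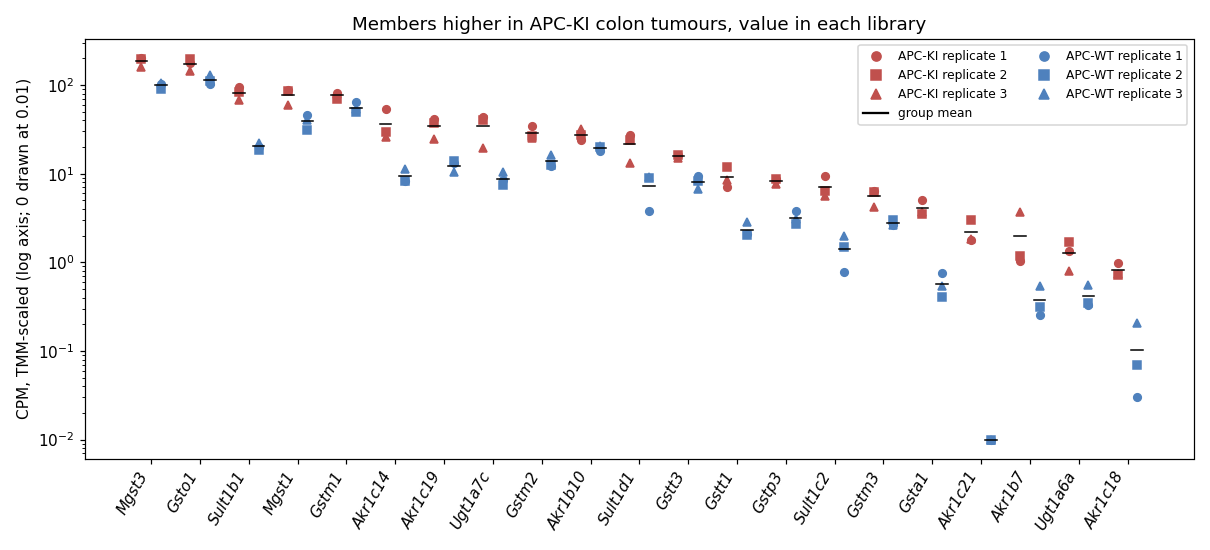
CPM per library (vertical log axis, 0 drawn at 0.01) of the 21 genes that were higher in APC-KI tumours, with a line for each group's mean. For every gene the 3 APC-KI libraries lie above the 3 APC-WT libraries, which is largely fixed by the choice of genes on these values. The APC-WT points of Akr1c21 are all at 0.

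Across these 21 genes the libraries within a group were not alike. The lowest APC-KI value was in replicate 3 for 14 genes, among them Ugt1a7c, Sult1b1, Sult1d1, Mgst1 and Akr1c19. This is also the library in which 5 of 11 absorptive colonocyte genes were within or below their APC-WT range. The other 6 were above theirs in every APC-KI library. What part this has in the values of the 21 genes was not tested. The highest APC-WT value was in replicate 3 for 13 genes. How often these libraries held the lowest or highest value over all genes was not counted. A trend of whole libraries therefore cannot be told from a trait of the 21 genes. APC-WT replicate 3 is the APC-WT library without Y-linked counts. Akr1c14, Akr1c19, Gsta1, Gstm2, Gstp3, Gstt1, Mgst3 and Sult1b1 passed in each of 7 fits with another tool, scaling or filter and in each of the 6 fits that left out a library. Over the libraries without Y-linked counts, Gsta1, Gstt3 and Sult1b1 passed again, and Gsta3 passed as well. Akr1c21 passed in all of these fits too, but entered the test through the APC-KI libraries alone. All 21 kept the direction there, which is largely fixed by the choice of genes because those 4 libraries were also in the first fit. Gstt3 and Sult1b1 passed when Y-linked counts were a covariate, and likewise Akr1c21. In that fit the group difference rests mainly on APC-WT replicate 3.

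Promoter windows from RefSeq (GRCm38.p6, 250 bases before to 50 after a gene's start) were found for 46 of the 51 genes, in 56 windows. They were searched on both strands for TGACNNNGC, the core of the antioxidant response element bound by NRF2, and this word was in 5 of 56 windows (8.93%), against 12.4% of 32851 windows of all genes. The xenobiotic response element TNGCGTG, bound by the aryl hydrocarbon receptor, was in 2 windows (3.57%, against 5.07%). The HNF1 site, read as the first run of capitals in the Sult1d1 window below with its seventh base free, was in 2 windows (3.57%, against 0.399%), those of Sult1d1 and Ugt1a1. The TCF word CTTTGAT was in 0 (against 3.73%). No matches overlapped in these windows. A match is a description of the letters and does not show binding. Among the 21 genes that rose, 3 held a word, and their windows are shown with the matched letters in capitals because these are the genes with both a higher level and a match. The Akr1c21 window, which holds none of the 4, is shown because its transcript was seen in APC-KI tumours alone. In Mgst1 (chr6:138140277-138140576, plus strand) and in Akr1c19 (chr13:4233490-4233789, plus strand) the capitals mark the antioxidant word on the reverse strand. In Sult1d1 (chr5:87568957-87569256, minus strand) they mark the HNF1 site and, after it, the xenobiotic word on the reverse strand. The Akr1c21 window is chr13:4573825-4574124 on the plus strand.
Mgst1: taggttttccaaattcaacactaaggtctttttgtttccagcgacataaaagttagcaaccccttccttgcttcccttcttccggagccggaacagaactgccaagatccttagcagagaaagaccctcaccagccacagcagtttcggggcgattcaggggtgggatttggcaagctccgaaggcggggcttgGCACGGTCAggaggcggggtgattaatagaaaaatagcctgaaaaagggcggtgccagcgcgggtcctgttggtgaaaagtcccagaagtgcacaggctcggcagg
Akr1c19: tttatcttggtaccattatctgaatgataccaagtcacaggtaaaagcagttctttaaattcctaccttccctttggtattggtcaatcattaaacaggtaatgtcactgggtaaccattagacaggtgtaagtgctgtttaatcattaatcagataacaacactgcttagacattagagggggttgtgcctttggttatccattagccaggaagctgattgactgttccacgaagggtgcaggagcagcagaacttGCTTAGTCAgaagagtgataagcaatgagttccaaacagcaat
Sult1d1: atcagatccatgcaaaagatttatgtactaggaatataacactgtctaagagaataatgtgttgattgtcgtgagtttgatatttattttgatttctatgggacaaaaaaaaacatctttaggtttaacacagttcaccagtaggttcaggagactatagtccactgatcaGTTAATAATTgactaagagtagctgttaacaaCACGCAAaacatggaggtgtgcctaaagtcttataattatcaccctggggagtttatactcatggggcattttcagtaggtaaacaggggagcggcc
Akr1c21: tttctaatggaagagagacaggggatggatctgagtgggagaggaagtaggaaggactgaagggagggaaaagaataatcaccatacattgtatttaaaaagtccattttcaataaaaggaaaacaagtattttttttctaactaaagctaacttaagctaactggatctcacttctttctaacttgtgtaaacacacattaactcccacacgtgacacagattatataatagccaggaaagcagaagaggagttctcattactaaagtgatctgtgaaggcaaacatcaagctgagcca

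Genes that supply, regulate and follow conjugation were read from 7 lists, with 98 tested genes outside the families above. Of these 22 genes were higher and 4 lower (22.4% and 4.08%, against 12.5% and 7.63% of all genes). The higher calls numbered 8 without APC-KI replicate 1, 8 without APC-KI replicate 2, 13 without APC-WT replicate 1 and 7 without APC-WT replicate 2. In these fits 6.48%, 7.02%, 12.6% and 5.91% of all genes passed in either direction. The lower calls numbered 2 without APC-KI replicate 1 and 8 without APC-WT replicate 3, where 19.5% of all genes passed. With Y-linked counts as a covariate 4 were higher and 0 lower, while 2.17% of all genes passed. Leaving out the libraries with Y-linked counts left a single APC-WT library. In the covariate fit the group difference likewise rests mainly on that library. In glutathione synthesis and recycling 3 of 14 rose and 0 fell. This 21.4% lies near the 20.1% of all genes that passed in either direction, of which 12.5% were higher and 7.63% lower. Gclc, the catalytic subunit of the rate-limiting ligase, held 103, 97.3 and 87.0 CPM in APC-KI and 71.3, 66.2 and 62.0 CPM in APC-WT tumours (log2 0.52 ± 0.09, edgeR adjusted p = 0.013, or 0.0585 without APC-WT replicate 2). Gss, the synthetase of the next step, rose by 0.31 and the dipeptidase Dpep1, which splits cysteinylglycine, by 1.44 on the log2 scale (edgeR adjusted p = 0.0191 and 0.0333). These calls were lost without APC-KI replicate 1 or 2 or APC-WT replicate 2, and that of Dpep1 also without APC-WT replicate 3 (edgeR adjusted p = 0.063 to 0.103). Oplah, which recycles oxoproline, did not pass at -0.48, but did without replicate 3 of either group (edgeR adjusted p = 0.0477 and 0.048).

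Among 22 NRF2 regulators and classic targets 7 rose and 3 fell (31.8% and 13.6%, against 12.5% and 7.63% of all genes). Nqo1, the quinone reductase, held 24.3, 17.0 and 18.3 CPM in APC-KI and 9.97, 6.08 and 6.92 CPM in APC-WT tumours (a 2.59-fold rise, edgeR adjusted p = 0.0124). The genes that fell were Mafg, a small MAF partner of NRF2, at a log2 change of -1.01, and the efflux pumps Abcc1 and Abcc4, at -0.52 and -0.67 (edgeR adjusted p = 0.00852, 0.0109 and 0.0117). Without APC-KI replicate 1 the edgeR adjusted p of both pumps was 0.0501 and 0.0509, and without APC-WT replicate 2 that of Abcc4 was 0.0517. The gene of NRF2 itself, Nfe2l2, and that of its inhibitor, Keap1, chosen for their role after their values were seen, did not pass at -0.05 and 0.20.

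Of 11 efflux pumps 3 were higher and 2 lower (27.3% and 18.2%, against 12.5% and 7.63% of all genes). The lower ones were Abcc1 and Abcc4 again. Abcc3, a basolateral pump for glucuronides and bile acid conjugates, held 192, 203 and 161 CPM in APC-KI tumours, against 74.9, 66.4 and 61.1 CPM in APC-WT tumours (log2 1.46 ± 0.12, edgeR adjusted p = 0.0028). Abcg2, an apical pump for sulfate conjugates, held 24.2, 23.3 and 18.8 CPM in APC-KI and 9.78, 9.90 and 11.24 CPM in APC-WT tumours (log2 1.10 ± 0.14, edgeR adjusted p = 0.00631). The pumps that rose and those that fell were each separated between the groups in every library, which is largely fixed by their having passed.

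Of the tested genes of donor supply, 20% of the glucuronate list and 0% of the sulfate list passed, against 20.1% of all genes. For glucuronidation, Ugp2, which makes UDP-glucose, rose by 0.57 on the log2 scale (edgeR adjusted p = 0.0257, but 0.0578 to 0.0923 without APC-KI replicate 1 or 2 or APC-WT replicate 1 or 2) and was the 1 gene of 5 to pass. The glucuronidase Gusb and the nucleotide sugar transporters Slc35d1 and Slc35d2 had log2 changes of -0.25, 0.29 and -0.16 that did not, Slc35d1 other than without APC-KI replicate 3 (edgeR adjusted p = 0.0394). Of 13 genes of sulfate donor supply and sulfate ester cleavage 0 passed in edgeR, 2 were higher and 1 lower at an unadjusted p under 0.05, and DESeq2 called 1 higher. The sulfate transporters Slc26a2 and Slc26a1 had log2 changes of 1.01 and -1.26, the protein sulfotransferase Tpst1 0.62 and the PAPS carrier Slc35b2 -0.13. Leaving out 1 library gave calls for Slc26a2 (without APC-KI replicate 3), Slc26a1 (without APC-WT replicate 1) and Tpst1 (without APC-WT replicate 3), at edgeR adjusted p of 0.00812, 0.0197 and 0.0314.

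Of 18 xenobiotic and epithelial transcription factors 6 rose and 1 fell (33.3% and 5.56%, against 12.5% and 7.63% of all genes). Nr1h4, the bile acid receptor FXR, held 52.2, 54.3 and 36.8 CPM in APC-KI and 14.7, 9.51 and 10.9 CPM in APC-WT tumours (log2 2.02 ± 0.22, edgeR adjusted p = 0.0049). Hnf4g, a nuclear receptor of the intestinal epithelium, and Pparg rose by 1.43 and 1.02 on the log2 scale (edgeR adjusted p = 0.00386 and 0.0164), the last not without APC-KI replicate 1 or 2 or APC-WT replicate 2 (0.054 to 0.067). The aryl hydrocarbon receptor gene Ahr fell to 43.4, 42.7 and 49.4 CPM in APC-KI tumours, against 78.8, 74.2 and 67.1 CPM in APC-WT tumours (log2 -0.70 ± 0.09, edgeR adjusted p = 0.00732). Of 22 other carbonyl-metabolizing enzymes 4 rose (18.2%, near the 12.5% of all genes). They were the carbonyl reductase Cbr3 (log2 1.48) and the aldehyde dehydrogenases Aldh2 (0.51), Aldh1a3 (1.76) and Aldh9a1 (0.51), with edgeR adjusted p of 0.0142, 0.0186, 0.0432 and 0.046 in this order. Cbr3 lost its call without APC-WT replicate 2 (edgeR adjusted p = 0.0622). The 3 dehydrogenases lost theirs without APC-KI replicate 1 or 2 or APC-WT replicate 2, Aldh1a3 and Aldh9a1 also without APC-WT replicate 1, and Aldh1a3 also without APC-KI replicate 3 (edgeR adjusted p = 0.0594 to 0.14).

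**Figure D4:**
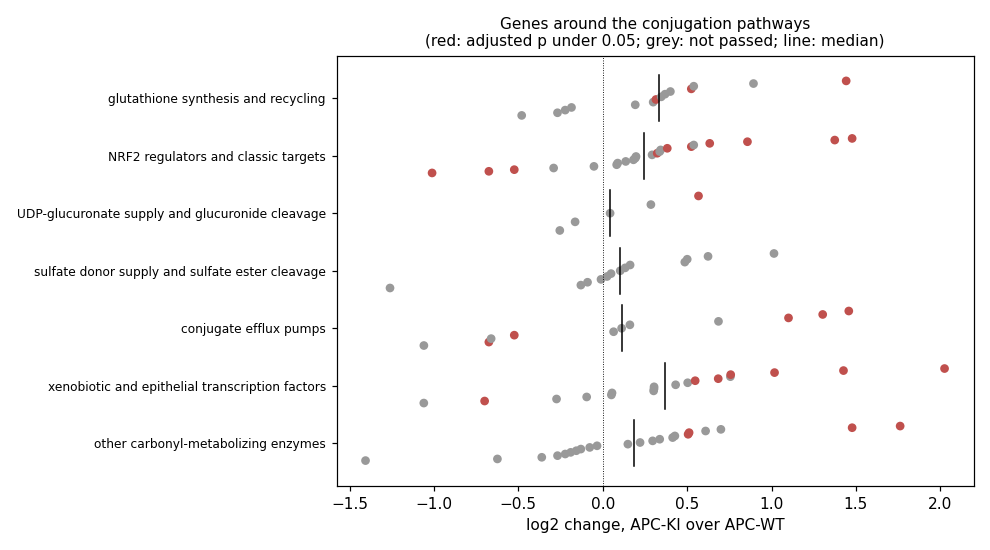
Log2 change (APC-KI over APC-WT, horizontal axis) of each tested gene in the 7 lists, red where the adjusted p was under 0.05, with a line at each list's median. The medians lie between 0.04 for UDP-glucuronate supply and 0.37 for the transcription factors, against -0.02 for all genes.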

How the data were processed

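Raw counts per Ensembl gene, whole numbers for 6 libraries, were the deposited values, per the file headers. The submitters' processing notes name Trim Galore 0.6.4 with cutadapt 2.5, STAR, DESeq2 1.37.6 and the builds GRCm38 and mm10. How reads were counted, with which strand setting and on which annotation release, is not stated in the sources used here. Symbols, gene types, exon lengths and gene order came from GENCODE M21, which named 52147 of 53700 identifiers. Identifier versions equalled those of M21 for 35 rows alone, and lengths and shared bases are therefore approximate. Libraries were TruSeq Stranded mRNA, per the labels' protocols.

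Groups came from sample titles. Genes were kept with filterByExpr, scaled with TMM and tested with edgeR 4.0.16 (robust quasi-likelihood test) in R 4.3.3, with group the sole term and Benjamini-Hochberg adjustment over 19127 genes. The steps were tested on simulated data. Alternatives were DESeq2 1.42.0, limma-voom (limma 3.58.1), RLE and upper-quartile factors, library totals, no filter, a stricter filter (CPM above 1 in 3 samples), the replicate number as a term, each library left out, and 2 fits on Y-linked counts. Replicate libraries were distinct (a chi-square of 40.1 to 114.5 per gene between them). Library totals were 51777342 to 63921108 counts. No enzyme gene with under 30 counts in all passed the filter.

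The rule for named genes took all members past the threshold, the 2 highest in CPM of each family, untested members with 30 or more counts, up to 4 non-member genes with the smallest p of each list, and Tcf7l2. Further members, neighbours in a gene cluster or genes close to the threshold, were named after their values were seen. Members and lists were chosen with earlier results of these data known.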

Additional observations from a re-analysis of the deposited data

How the results depend on the processing

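Members called higher numbered 21 and lower 0. The counts were 25 and 1 with DESeq2, 19 and 3 with library totals, and 22 and 1 without a filter on low counts. The replicate block gave 13 higher, where 8.68% of all genes passed. A covariate of Y-linked counts gave 3 higher and 1 lower, where 2.17% of all genes passed. In that fit the group difference rests mainly on APC-WT replicate 3, the APC-WT library without such counts. The fit that left out the libraries with Y-linked counts has a single APC-WT library. Leaving out a library gave 10 to 21 higher and 0 to 1 lower. List genes called higher numbered 22 and lower 4. These counts were 7 lower with DESeq2, 9 lower with library totals, 12 higher with the replicate block and 4 and 0 with the covariate. Leaving out a library gave 7 to 24 higher and 2 to 8 lower. The cause of these moves was not tested, other than that the fits without libraries hold fewer samples. The labels do not say whether replicate numbers pair the libraries. Correlations of deviations were 0.03, -0.07 and -0.18 for same-numbered libraries and -0.14 to 0.20 for the others. With 3 libraries per group these cannot settle it, and why calls were lost under the block was not tested. Of 955 values for 60 named genes under the alternatives, 766 kept direction and side of the threshold, 159 lost and 28 gained a call, and 2 changed sign. Both were of the log2 change of Akr1a1, at -0.0136 with upper-quartile factors and -0.0909 with library totals. Depth limits the 5 genes with 30 or more counts that were not tested.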

Other observations

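The gene of the intestinal factor CDX2, a member of the transcription factor list, was low in the APC-KI library that also held the lowest values for 14 of the 21 genes. Cdx2 stood at 56.5, 51.6 and 5.34 CPM in APC-KI and 32.8, 17.3 and 34.0 CPM in APC-WT tumours, and its log2 change of 0.43 did not pass (edgeR adjusted p = 0.709). No test links the pair of patterns.

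Genes of other cell types were read for reference. Of those tested, 3 of 8 fibroblast, 3 of 6 endothelial, 3 of 7 macrophage, 2 of 4 adipocyte and 2 of 5 tuft cell genes were higher in APC-KI tumours at an edgeR adjusted p under 0.05, against 12.5% of all genes. The 8 mast cell genes summed to 19.1 to 37.4 CPM in APC-KI and 155 to 894 CPM in APC-WT tumours. Liver also expresses many of the enzymes. The summed CPM of 8 hepatocyte genes was 24.9 to 30.7 in APC-KI and 26.3 to 84.8 in APC-WT tumours, of which Alb made up 12.1, 19.4 and 8.79 CPM in APC-KI and 22.01, 14.98 and 80.0 CPM in APC-WT tumours. The 1 gene higher of the 4 tested was Serpina1c, at 3.03, 1.57 and 8.11 CPM in APC-KI and 0, 0.0176 and 0 CPM in APC-WT tumours (edgeR adjusted p = 0.00626), a gene that could pass the filter through the APC-KI libraries alone. Cyp2e1 stood at 2.44, 2.14 and 1.14 CPM in APC-KI and 1.36, 0.0703 and 0.243 CPM in APC-WT tumours and did not pass. Apoc3 and Fgb had 2 counts each over all libraries.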
